A study of Homo sapiens with 12 samples.

Results

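The response shared by both forms of MED12 was read from 9 of the 12 arrays of the series: the 6 arrays of the MED12 full-length and the MED12 PQL/Opa domain deletion overexpression groups, pooled, against the 3 arrays of the GFP overexpression control. The groups and their 3 biological replicates each come from the labels, and no measured value chose them. All were HEK293 cells, an established line from human embryonic kidney, plated, transfected with a lipid reagent 24 hours later and collected 48 hours after that. A 20 minute flow sort per sample kept living cells that carried GFP. The control carried nuclear localized GFP in the vector pcDNA5/TO. Both MED12 constructs were in that vector too, with an N-terminal tag of nuclear localized GFP and an engineered Kozak sequence. One held full-length MED12, and the other lacked the C-terminal PQL and Opa domains. The remaining 3 arrays carried a short hairpin RNA against MED12, driven by an H1 promoter in another GFP vector (peGFP-C1), and are given only as further values. The endogenous MED12 gene was still present in every group, so each construct added to it.

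MED12 belongs to the kinase module of Mediator, the large complex that carries signals from transcription factors to RNA polymerase II. The module, with CDK8 or CDK19, cyclin C and MED13 or MED13L, docks on the core complex reversibly and can both restrain and aid transcription. In other settings MED12 is known for roles in Wnt, Hedgehog and transforming growth factor beta signalling and in the silencing of neuronal genes with REST and the histone methyltransferase G9a. The C-terminal PQL domain is the part through which MED12 binds several partner factors, and the Opa domain is rich in glutamine.

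A value is a deposited log2 signal of 1 row, which sums up the probes of a gene, so a difference of 1 is a doubling. Differences are between groups within a row, and since probes differ between rows, the levels of different rows are not read as amounts of RNA. Of 22011 rows, 14432 carried 1 gene symbol. The arrays of the whole series had medians from 3.39 to 3.51 and pairwise correlations from 0.881 to 0.975, and no 2 held identical values. Their spread differed: the log2 values of GFP replicate 1 had an SD of 1.40 and those of PQL/Opa deletion replicate 1 an SD of 1.45. The other arrays compared had SDs from 1.51 to 1.60. Replicate 1 was the narrowest array of every group, at 1.51 for full length and 1.34 for the hairpin. Fits described below as without GFP replicate 1 keep replicate 1 of the other groups. The mean SD was 1.54 ± 0.05 (SD, n = 6) for the constructs and 1.52 ± 0.11 (SD, n = 3) for GFP (two-sided exact permutation test, p = 0.833, where 84 assignments allow no p under 0.0238). Marker lists were therefore compared between groups only, and the labelled cell type was not checked by level. None of the measured markers of fibroblasts, leukocytes, endothelium and hepatocytes had an unadjusted p under 0.05 in the pooled comparison.

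Among genes with a row of their own, MED12 alone was higher at an adjusted p under 0.05 in the pooled comparison. Its log2 value was 4.03, 4.56 and 4.66 with GFP, 10.63, 10.66 and 10.75 with full-length MED12, and 8.62, 8.90 and 9.25 with the PQL/Opa deletion. The groups stood far apart, with every construct array above every control array. Pooled, the difference was 5.39 ± 0.17 (SE, n = 6 against 3), or 41.9-fold (limma, adjusted p = 3.99e-08). The row also differed between the constructs, by 1.76 ± 0.20 (SE) in favour of full length (limma, adjusted p = 0.0421). Leaving out 1 array ended that second call in 9 of 12 fits. They were those without GFP replicate 2 or 3, any full-length array, PQL/Opa deletion replicate 1 or 2, or shRNA replicate 2 or 3. The position of the probes along MED12 was not known here, so a lower amount of the shortened RNA cannot be told apart from probes inside the deleted part. The paralogue MED12L had a pooled difference of 0.03 ± 0.16 (SE), with a sign that turned in 2 of the fits leaving out 1 array.

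One more row passed that threshold, row 2363784, which carries 2 symbols and is called by its number because neither gene can be assigned to it. At least 1 of its symbols stands in the heat shock list described further on. Its values were 4.35, 4.67 and 4.35 with GFP, 6.86, 6.94 and 6.69 with full length, and 5.61, 5.46 and 5.40 with the deletion. No groups overlapped. The pooled difference was 1.70 ± 0.14 (SE), or 3.26-fold (limma, adjusted p = 9.97e-04). Full length exceeded the deletion by 1.34 ± 0.17 (SE), which did not pass the threshold (limma, adjusted p = 0.0529). With the hairpin the row was at 3.61, 3.16 and 3.25, under every GFP array.

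Apart from these 2 rows the pooled comparison called nothing. Rows past an adjusted p of 0.05 made up 0.00909% of all rows, 0.00693% of rows with 1 symbol in the higher direction and 0% in the lower. At an unadjusted p under 0.05, 197 rows with 1 symbol (1.37%) were higher with the constructs and 91 (0.631%) were lower. Together these lie under a share of 0.05, which this threshold would give where no row differed. List counts further on are set beside these observed shares, a low background, and not beside that one. In 145 rows (1%) all 6 construct arrays lay above all 3 GFP arrays, and in 70 (0.485%) they lay below. The smallest adjusted p of any 1-symbol row other than MED12 was 0.675. A fit that blocked on the replicate number passed 3 rows: MED12, row 2363784 and row 2686794, which has no symbol and was lower (-1.28, limma, adjusted p = 0.0156). That fit raised the 1-symbol rows with an unadjusted p under 0.05 from 288 to 663. Weighting the arrays by their quality passed 24 rows, among them DKK1, DNAJB1, IFI44, IFIT2, RSAD2, UBB and ZFAND2A. No difference described from here on passed the adjusted threshold in the unweighted fit, so they are given as values. The single-construct differences share the GFP arrays and are therefore only set side by side. In bulk RNA, more responding cells and more RNA per cell cannot be told apart.

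**Figure D1:**
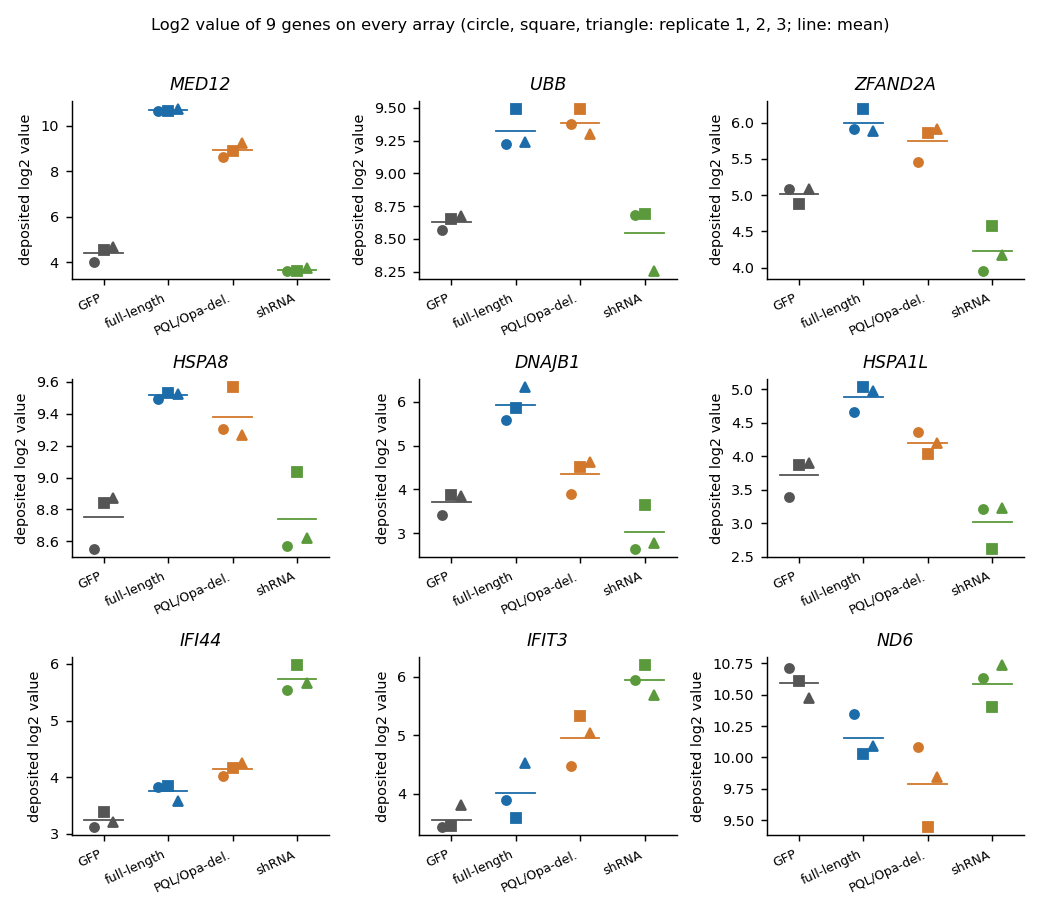
Deposited log2 value (y axis, a scale of its own in each panel) of 9 genes on each of the 12 arrays, by group; the 3 symbols are replicates 1 to 3 and the line is the group mean. All construct arrays lie above all GFP arrays for MED12, UBB, ZFAND2A, HSPA8, DNAJB1, HSPA1L and IFI44, and below them for ND6.

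Chaperone and ubiquitin genes headed the higher rows. Protein-damage responses in human cells run through heat shock factor HSF1, which raises the genes of chaperones that refold proteins and of ubiquitin and adaptor proteins that send them to the proteasome. After MED12, the smallest unadjusted p-values in the higher direction belonged to DNAJB1, UBB, ZFAND2A, IFI44, HSPA8, NUP50, HSPA1L, RSAD2 and SERPINH1. Of these 9, 6 are genes of protein folding or clearance and 2 are interferon-stimulated genes. NUP50, a nuclear pore protein, was 0.61 ± 0.13 (SE) higher.

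UBB, one of the polyubiquitin genes that cells draw on under stress, had like values with both constructs. It was at 8.57, 8.65 and 8.68 with GFP, 9.23, 9.49 and 9.24 with full length, and 9.37, 9.49 and 9.30 with the deletion. The lowest construct array stood above the highest control array by more than the whole range of either group. The hairpin arrays, at 8.68, 8.69 and 8.26, lay near or below the controls. Pooled, UBB was 0.72 ± 0.14 (SE) higher, or 1.65-fold (limma, adjusted p = 0.675). Full length minus deletion was -0.07, with a 95% interval from -0.42 to 0.28. Polyubiquitin genes are built of near-identical repeats, so probes of this row could also bind the RNA of other ubiquitin genes.

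ZFAND2A encodes AIRAP, a protein that adapts the proteasome to damaged substrates. It was at 5.09, 4.87 and 5.08 with GFP, 5.91, 6.19 and 5.88 with full length, and 5.46, 5.85 and 5.91 with the deletion. Again no construct array reached down to the controls, and the hairpin arrays were lower than both (3.96, 4.58 and 4.18). This gave a pooled difference of 0.85 ± 0.17 (SE), or 1.81-fold (limma, adjusted p = 0.675). The constructs differed by 0.25, with a 95% interval from -0.17 to 0.68.

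HSPA8 is the constitutive cytosolic HSP70 chaperone. It was at 8.55, 8.84 and 8.87 with GFP, 9.49, 9.53 and 9.52 with full length, and 9.30, 9.57 and 9.26 with the deletion. All construct arrays again lay above the controls, by 0.69 ± 0.15 (SE) on average, or 1.62-fold (limma, adjusted p = 0.676). Between constructs it was 0.14, with a 95% interval from -0.23 to 0.51. For these 3 genes the intervals between the constructs include 0 but are as wide as the shared difference, so equal responses are not shown.

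The promoters of HSPA8 and ZFAND2A are printed because they hold matches to the core of the element through which heat shock factor is known to act on such genes. Shown are the 250 bases before the 1 start listed for each gene in RefSeq (GRCh38.p14), 5′ to 3′ on the gene's strand, HSPA8 at chr11:123062137-123062386 and ZFAND2A at chr7:1160197-1160446, both on the minus strand. Capitals mark matches to the heat shock element core, written GAANNTTC or TTCNNGAA, each of which reads the same on both strands.
HSPA8: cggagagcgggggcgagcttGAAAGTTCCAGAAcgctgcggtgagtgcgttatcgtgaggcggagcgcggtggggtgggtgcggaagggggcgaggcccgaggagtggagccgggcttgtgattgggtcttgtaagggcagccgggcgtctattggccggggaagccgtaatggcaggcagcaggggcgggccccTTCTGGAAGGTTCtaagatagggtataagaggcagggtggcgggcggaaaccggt
ZFAND2A: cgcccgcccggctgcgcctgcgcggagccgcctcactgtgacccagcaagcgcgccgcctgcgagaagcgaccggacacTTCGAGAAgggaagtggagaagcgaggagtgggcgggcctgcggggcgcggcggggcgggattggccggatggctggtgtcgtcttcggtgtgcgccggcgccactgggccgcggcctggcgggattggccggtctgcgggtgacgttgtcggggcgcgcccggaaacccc
HSPA8 held 4 matches in 2 overlapping pairs, 230 to 218 and 55 to 43 bases before the start, and ZFAND2A held 1, 171 to 164 bases before it. UBB held 0 in the windows of its 2 listed starts. Counting a gene once if any of its windows of this length held a match, 3813 of 27305 genes (14%) did. In the heat shock list 11 of 16 genes with a window did (68.8%), and in the ubiquitin and protein clearance list 1 of 10. Within the heat shock list these were 6 of the 8 genes that were higher at an unadjusted p under 0.05 and 5 of the 8 that were not, HSP90AA1 and HSPD1 among the latter. DNAJB1 held matches in 1 of the windows of its 3 listed starts. Over a whole list the share of matches follows from which genes were listed and does not draw on these arrays. A match is a run of letters and was not tested as a binding site.

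A second set of chaperone genes was higher with both constructs but with larger values under full length. DNAJB1, the HSP40 partner of inducible HSP70, was at 3.41, 3.88 and 3.86 with GFP, 5.59, 5.86 and 6.35 with full length, and 3.90, 4.52 and 4.63 with the deletion. Its lowest deletion array only just cleared the highest control, while all full-length arrays lay well above it. Pooled, DNAJB1 was 1.43 ± 0.26 (SE) higher, made of 2.22 for full length and 0.64 for the deletion (limma, adjusted p = 0.675). Full length minus deletion was 1.58, with a 95% interval from 0.92 to 2.25 (limma, unadjusted p = 2.5e-04, adjusted p = 0.923).

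HSPA1L, an HSP70 gene next to the inducible HSPA1A and HSPA1B and close to them in sequence, followed the same order. It was at 3.40, 3.87 and 3.90 with GFP, 4.66, 5.04 and 4.97 with full length, and 4.37, 4.04 and 4.20 with the deletion. It was 0.82 ± 0.19 (SE) higher with both constructs pooled (limma, adjusted p = 0.824). Full length exceeded the deletion by 0.68, with a 95% interval from 0.22 to 1.15. Because of that likeness, probes of this row may also read its neighbours. SERPINH1, the collagen chaperone HSP47, was 0.56 ± 0.14 (SE) higher, with 0.77 for full length and 0.34 for the deletion.

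Over the whole heat shock list, 17 of 24 genes had a row and 12 of the 17 lay above 0, against 48.7% of all genes. The median pooled difference was 0.53, beside -0.0046 for all genes. At an unadjusted p under 0.05, 8 of 17 were higher and 0 lower, beside 1.37% and 0.631% of all 1-symbol rows. In 4 all construct arrays lay above all controls, beside 1% of those rows. Leaving out 1 array gave 7 to 10 higher genes. The list's median was 0.76 for full length and 0.24 for the deletion, and 15 of 17 genes were higher with full length than with the deletion. That difference uses no control array: 8 of 17 had an unadjusted p under 0.05 in it, beside 1.23% of 1-symbol rows in either direction. In that comparison 0.00693% of 1-symbol rows, MED12 alone, passed the adjusted threshold.

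Other members with an unadjusted p under 0.05, named after their values were seen, were HSPH1 (0.88 pooled, 1.30 and 0.47 for full length and deletion), HSPA4L (0.60, with 0.90 and 0.29), DNAJB4 (0.58, with 0.91 and 0.24) and BAG3 (0.44, with 0.66 and 0.22). HSPH1 and HSPA4L are HSP110-type exchange factors for HSP70, DNAJB4 is an HSP40 and BAG3 links HSP70 to autophagy. HSP90AA1, the inducible HSP90, was at 0.07 for full length and -0.51 for the deletion. The mitochondrial chaperonin pair HSPD1 and HSPE1 had pooled differences of -0.01 and -0.02.

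The list score of an array is the mean over members of its log2 value minus the GFP mean. For heat shock genes the scores were 0.72, 0.63 and 0.70 with full length, 0.13, 0.29 and 0.27 with the deletion, and -0.28, 0.18 and 0.10 with GFP. The full-length arrays stood apart from all others, while the deletion arrays overlapped the controls. With the hairpin the scores were -0.62, -0.04 and -0.33. GFP replicate 1, the narrow array, had the lowest control score, and without it the median pooled difference of the list was 0.33 in place of 0.53.

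The ubiquitin and protein clearance list gave a smaller count. Of 13 measured genes 8 lay above 0, the median was 0.11, and 3 were higher at an unadjusted p under 0.05 (beside 1.37% of 1-symbol rows): UBB, ZFAND2A and UBQLN2. Leaving out 1 array, the median ranged from 0.02 without GFP replicate 1 to 0.28 without GFP replicate 3, and 2 or 3 genes were higher. In these 3 of 13 genes the construct arrays cleared every control array, beside 1% of 1-symbol rows. UBQLN2, a shuttle that brings ubiquitinated proteins to the proteasome, was 0.30 ± 0.12 (SE) higher, with 0.36 for full length and 0.24 for the deletion. HSF1, the heat shock factor, was at -0.11, VCP at 0.38 and the ubiquitin ligase STUB1 at -0.06, all named after their values were seen.

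**Figure D2:**
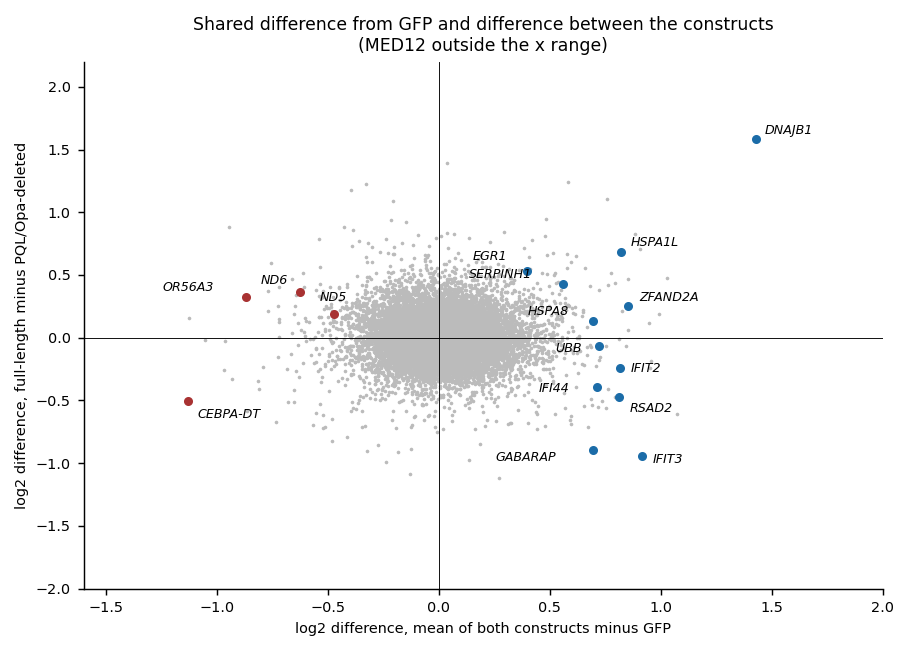
Each grey point is a row with 1 gene symbol; the x axis is the log2 difference of the mean of both constructs from GFP and the y axis the log2 difference of full-length minus PQL/Opa-deleted MED12, with 16 named genes in colour and MED12 outside the x range. UBB and HSPA8 sit near 0 on the y axis, DNAJB1 and HSPA1L above it, and the interferon-stimulated genes IFI44, RSAD2 and IFIT3 below it.

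Many interferon-stimulated genes had higher values with both constructs, larger under the deletion than under full length. These genes are turned on by interferon receptors, or directly by sensors of foreign RNA or DNA, and their products block viruses in several ways. IFI44, a protein of this set, was at 3.12, 3.39 and 3.21 with GFP, 3.82, 3.85 and 3.59 with full length, and 4.03, 4.17 and 4.24 with the deletion. The 3 groups did not overlap, and the hairpin arrays were higher still (5.54, 5.98 and 5.66). Pooled, IFI44 was 0.71 ± 0.14 (SE) higher, or 1.64-fold (limma, adjusted p = 0.675). Full length minus deletion was -0.39, with a 95% interval from -0.75 to -0.04.

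IFIT3, which with its relatives IFIT1 and IFIT2 binds foreign RNA, showed the widest gap between the constructs in its list. It was at 3.43, 3.45 and 3.80 with GFP, 3.89, 3.59 and 4.53 with full length, and 4.48, 5.32 and 5.04 with the deletion. One full-length array lay within the control range, and 2 deletion arrays lay above every full-length array. IFIT3 was 0.92 ± 0.24 (SE) higher with the constructs pooled, made of 0.45 and 1.39, and the constructs differed by -0.94 (limma, unadjusted p = 0.0053). IFIT2 was 0.81 ± 0.22 (SE) higher with no overlap between construct and control arrays. RSAD2, the antiviral enzyme viperin, was 0.81 ± 0.19 (SE) higher, and there GFP replicate 1 (3.98) lay above the lowest full-length array (3.91).

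The promoters of IFI44 and IFIT3 hold letters that match the core of the element that interferon regulatory factors are known to bind, and are shown for that. They are the 250 bases before 1 of the 2 starts that RefSeq (GRCh38.p14) lists for each, IFI44 at chr1:78649581-78649830 and IFIT3 at chr10:89332279-89332528, both on the plus strand. Capitals mark matches to the core of that element: GAAA, any 2 bases and GAAA again or, on the other strand, TTTC, any 2 bases and TTTC again.
IFI44: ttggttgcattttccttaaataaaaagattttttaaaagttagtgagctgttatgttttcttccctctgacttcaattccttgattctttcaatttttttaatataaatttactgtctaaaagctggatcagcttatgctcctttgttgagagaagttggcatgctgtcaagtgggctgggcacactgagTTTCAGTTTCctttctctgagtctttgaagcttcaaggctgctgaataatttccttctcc
IFIT3: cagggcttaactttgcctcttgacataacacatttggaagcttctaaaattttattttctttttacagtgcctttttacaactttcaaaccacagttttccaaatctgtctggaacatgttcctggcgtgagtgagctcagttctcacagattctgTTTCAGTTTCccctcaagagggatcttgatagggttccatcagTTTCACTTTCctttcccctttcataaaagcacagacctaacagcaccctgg
IFI44 held 1 match, 60 to 51 bases before the start, and IFIT3 held 2, at 94 to 85 and 51 to 42. RSAD2 held a match in 1 of its 2 windows. Of 27305 genes 1014 (3.71%) held a match in any window, and in the interferon list 22 of 31 genes with a window did (71%). Within that list these were 8 of the 8 genes that were higher at an unadjusted p under 0.05 and 14 of the other 23. Over the whole list the share of matches follows from which genes were listed and does not draw on these arrays. A match is again a run of letters, not tested as a binding site.

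Of the 37 interferon-stimulated genes with a row, 31 lay above 0 and the median pooled difference was 0.20. At an unadjusted p under 0.05, 9 were higher and 0 lower, beside 1.37% and 0.631% of 1-symbol rows, and in 6 the construct arrays cleared every control array, beside 1%. Leaving out 1 array gave 8 to 10 higher genes and a median from 0.14 to 0.21. Besides the genes above these included MX1 (0.57), IFIT1 (0.62), ISG15 (0.50), SAMD9 (0.39) and PARP14 (0.48), named after their values were seen. ISG15, a ubiquitin-like protein, was the one of them with the larger value under full length (0.70 against 0.29). The medians were 0.10 for full length and 0.27 for the deletion, and only 5 of 37 genes were higher with full length. The list scores were 0.13, 0.12 and 0.20 with full length, 0.25, 0.40 and 0.33 with the deletion, and 0.07, -0.09 and 0.01 with GFP. The groups did not overlap in this score. The hairpin scores were 0.99, 1.36 and 1.12, well above both constructs. The members IRF9 and IRF7, factors that drive the set, were at 0.14 and 0.04.

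**Figure D3:**
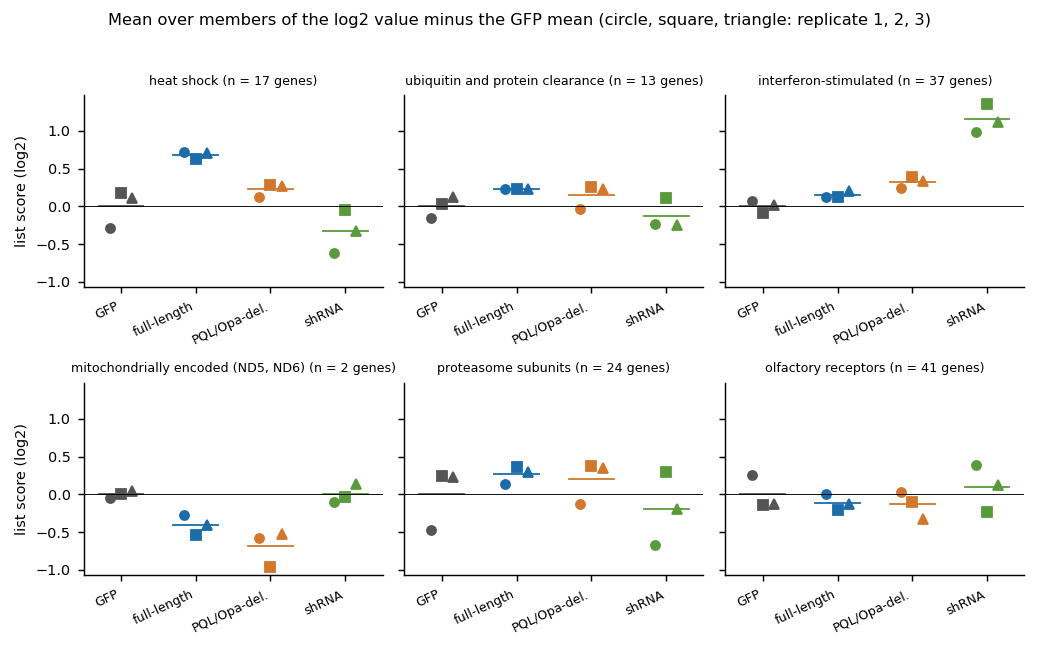
Score of 6 gene lists on each array, the mean over the measured members of the log2 value minus the GFP mean (y axis, log2), by group; symbols are replicates 1 to 3 and the line is the group mean. Heat shock scores are highest with full length (0.63 to 0.72), interferon scores highest with the hairpin (0.99 to 1.36), and GFP replicate 1 stands apart from the other controls for proteasome and olfactory receptor genes.

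The lower rows included a mitochondrial pair. ND6 and ND5, subunits of respiratory complex I, are encoded by mitochondrial DNA and were 2 of 26 listed mitochondrial genes, the 2 with a row of their own. ND6 was at 10.71, 10.61 and 10.47 with GFP, 10.35, 10.03 and 10.10 with full length, and 10.08, 9.44 and 9.84 with the deletion. ND5 was at 10.71, 10.91 and 11.13 with GFP, 10.61, 10.41 and 10.60 with full length, and 10.28, 10.15 and 10.61 with the deletion. For both genes every construct array lay below every control array, as in 0.485% of 1-symbol rows. The hairpin arrays of ND6 (10.63, 10.40 and 10.74) and ND5 (10.68, 11.04 and 11.05) lay near the controls. The pooled differences were -0.62 ± 0.16 (SE) and -0.47 ± 0.16 (SE), with limma's adjusted p at 1.00 for both. ND5 and ND6 lie next to each other on opposite strands, and whether probes of one row also read the other transcript was not tested.

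Most nuclear genes of oxidative phosphorylation had the opposite sign. Of 51 measured, 39 lay above 0, the median was 0.19, and 6 were higher and 0 lower at an unadjusted p under 0.05, beside 1.37% and 0.631% of all 1-symbol rows. That count fell to 1 without GFP replicate 1, 2 without PQL/Opa deletion replicate 2, and 3 without full-length replicate 1 or 3. NDUFS6, another complex I subunit, was at 6.69, 6.69 and 6.72 with GFP and between 6.92 and 7.23 on the 6 construct arrays, a difference of 0.36 ± 0.13 (SE) with no overlap. CYC1 of complex III was at 0.53 ± 0.17 (SE) and COX8A of complex IV at 0.38 ± 0.17 (SE). Without GFP replicate 1 the median of this list was 0.07 and that of the mitochondrially encoded pair -0.57.

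Several other lists were above 0 in the same way and moved with that 1 control array. Proteasome subunits had 20 of 24 genes above 0 with a median of 0.19, but 1 higher at an unadjusted p under 0.05, where 1.37% of 1-symbol rows were (PSMB5, a catalytic subunit, 0.32 ± 0.15 SE). Spliceosome genes had 31 of 38 above 0 with a median of 0.19, and mitochondrial ribosomal proteins 47 of 64 with a median of 0.10. The proteasome score of the GFP arrays was -0.48, 0.25 and 0.23, with replicate 1 apart from the other 2. Without it the proteasome median was 0.05, the spliceosome median -0.0067 and that of mitochondrial ribosomal proteins 0.05. Within the mitochondrial ribosome list, MRPS7 (0.51 ± 0.17 SE) and MRPS14 (0.53 ± 0.20 SE) had all construct arrays above all controls. Another 1 of the 64 had them all below. Of all 1-symbol rows 1% lay above in this way and 0.485% below. At an unadjusted p under 0.05, 6 of 64 were higher (beside 1.37% of 1-symbol rows), and 0 without GFP replicate 1.

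The same pattern ran over the whole table. With the 1-symbol rows in 5 equal groups by mean value, the median pooled difference was -0.05 in the lowest group, then -0.03, -0.01 and 0.02, and 0.07 in the highest. Without the 2 narrow arrays these medians were 0.03, 0.01, 0.01, 0.02 and -0.0017. With all arrays kept and scaled to the same median and SD they were -0.04, -0.02, -0.01, 0.01 and 0.06. Of the 197 higher rows at an unadjusted p under 0.05, 89 were among the 2887 rows of the highest group and 8 in the lowest. Named genes were also fitted with scaled arrays and without the narrow arrays. Beyond those values, the part that array spread plays in any 1 gene was not tested. For UBB the pooled difference ranged from 0.68 to 0.74 over the fits leaving out 1 array, for ZFAND2A from 0.78 to 0.92, for HSPA8 from 0.59 to 0.75 and for IFI44 from 0.65 to 0.78. For DNAJB1 it ranged from 1.27 to 1.54 and for ND6 from -0.70 to -0.54.

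**Figure D4:**
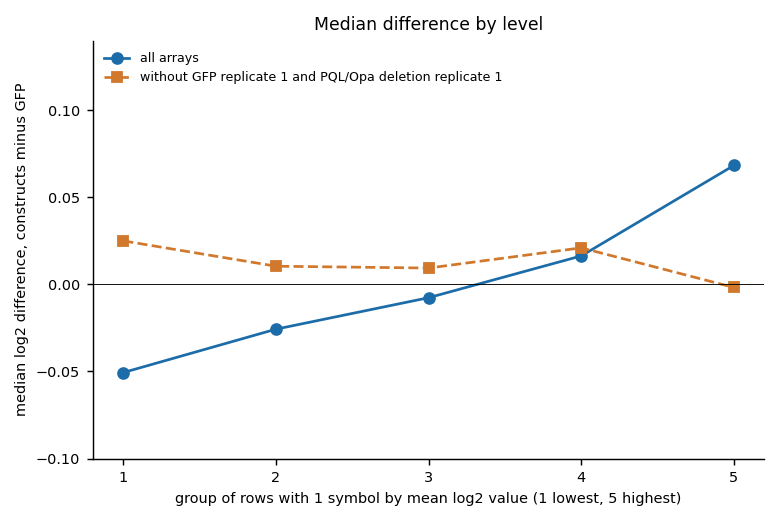
Median log2 difference of both constructs from GFP (y axis) in 5 equal groups of 1-symbol rows ordered by mean log2 value (x axis, 1 lowest and 5 highest), with all arrays (circles) and without the 2 narrow arrays, GFP replicate 1 and PQL/Opa deletion replicate 1 (squares). With all arrays the medians run from -0.05 to 0.07; without those 2 arrays they run from -0.0017 to 0.03.

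The remaining rows with the smallest p-values in the lower direction were of mixed kind. PCNP, a nuclear protein with PEST motifs, was at 6.94, 6.76 and 6.64 with GFP and between 6.20 and 6.42 on the construct arrays, a difference of -0.46 ± 0.12 (SE). THAP5, a zinc finger protein, was at 4.37, 4.39 and 4.49 with GFP and between 3.39 and 4.18 with the constructs (-0.60 ± 0.16 SE). BET1, a SNARE of vesicle transport from the endoplasmic reticulum, differed by -0.52 ± 0.15 (SE) and ZNF138 by -0.77 ± 0.23 (SE), each with no overlap. CENPE, the mitotic kinesin of the kinetochore, differed by -0.54 ± 0.17 (SE) with 1 construct array above the lowest control.

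The others were OR56A3 (-0.87), OR2M4 (-0.72), FNDC9 (-0.97) and CEBPA-DT (-1.13), a non-coding RNA beside CEBPA. FNDC9 was at 4.45, 4.06 and 2.93 with GFP, and its lowest control array lay within the range of the constructs (2.59 to 3.19). The 2 olfactory receptor genes belong to a list of which 16 of 41 lay above 0, with a median of -0.12 that turned to 0.04 without GFP replicate 1. Its GFP scores were 0.26, -0.14 and -0.13, with replicate 1 again apart. The largest lower values in both constructs also included H3C3 (-1.12) and ACKR4 (-0.93), where GFP replicate 1 alone was high, at 3.61 against 1.85 and 1.60 for H3C3 and 3.87 against 1.60 and 2.34 for ACKR4. Histone genes such as H3C3 have near-identical copies, which its probes may read as well. ANP32D was at -1.06, with 2 construct arrays inside the control range.

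On the higher side, the largest values held by both constructs were in CCNL2 (0.86 and 1.05 for full length and deletion), PFN1 (1.01 and 0.89), NPM1 (1.08 and 0.90) and RPL18 (0.83 and 1.07). CCNL2 is a cyclin of pre-mRNA splicing, PFN1 the actin-binding profilin, NPM1 a nucleolar chaperone and RPL18 a ribosomal protein. RPL18 was at 5.82, 7.43 and 7.44 with GFP and between 7.60 and 8.14 with the constructs, with replicate 1 the low control. NPM1 was at 1.61, 0.71 and 1.59 with GFP, far under the medians of the GFP arrays (3.39 to 3.49). Its difference was thus read at low signal.

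No other Mediator gene had an unadjusted p under 0.05. In the kinase module the other 6 genes lay between -0.08 and 0.19: MED13L at 0.19 ± 0.31 (SE), CDK19 at -0.08 ± 0.13 (SE) and CCNC, cyclin C, at -0.07 ± 0.21 (SE), while CDK8 was at -0.05 and MED13 at 0.06. The signs of MED13L and CCNC turned when single control arrays were left out. Of 21 core Mediator genes 14 lay above 0, the median was 0.05, and 0 had an unadjusted p under 0.05. The 10 RNA polymerase II genes had a median of 0.14 and 0 with an unadjusted p under 0.05. Without GFP replicate 1 the core Mediator median was -0.01 and the RNA polymerase II median 0.00016.

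The pathways that MED12 is known for showed single genes at most. Of 14 Wnt and beta-catenin target genes DKK1, a secreted Wnt inhibitor, was 0.52 ± 0.16 (SE) higher, and the list median was -0.08. Of 13 Hedgehog genes GLI3, the pathway's main repressor, was at 3.43, 3.64 and 3.59 with GFP and between 3.74 and 4.02 with the constructs (0.31 ± 0.12 SE). The Hedgehog list median was 0.0012. Of 16 TGF-beta and SMAD targets BAMBI, a decoy receptor, was 0.53 ± 0.21 (SE) higher, with a list median of 0.02. Of 26 neuronal genes that REST represses, SYP, the synaptic vesicle protein synaptophysin, was 1.07 ± 0.36 (SE) higher, and 9 lay above 0 with a list median of -0.06. Each of these 4 lists held 1 gene at an unadjusted p under 0.05, higher in each case, beside 1.37% of 1-symbol rows. Leaving out 1 array, each held 0 or 1 higher gene, and the TGF-beta list also 1 lower gene without shRNA replicate 1. In the TGF-beta list 1 gene had all construct arrays below all controls, beside 0.485% of 1-symbol rows. Without GFP replicate 1 the 4 medians were -0.01, 0.08, -0.03 and 0.04.

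Immediate early genes, which answer serum and stress within minutes, had 4 of 28 higher and 0 lower at an unadjusted p under 0.05, beside 1.37% and 0.631% of 1-symbol rows, with a median of 0.08. The count was 1 without GFP replicate 2, with a median of 0.04, and 2 without GFP replicate 1 or 3 or full-length replicate 1 or 3. EGR1, a zinc finger factor of that response, was at 5.84, 5.62 and 5.91 with GFP, 6.44, 6.46 and 6.47 with full length, and 5.95, 5.79 and 6.03 with the deletion. Every full-length array stood above every deletion and control array, and the constructs differed by 0.53 (limma, unadjusted p = 0.0048). DUSP1, a phosphatase of MAP kinases, was 0.46 ± 0.17 (SE) higher, ZFP36, which shortens the life of mRNAs, 0.42 ± 0.18 (SE) and CCN1 0.44 ± 0.20 (SE). Between the constructs GABARAP, an autophagy protein, was higher with the deletion, at 0.25 for full length and 1.14 for the deletion. KRTAP3-1, a hair keratin-associated protein, was at 0.03 and -0.75.

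Of the 36 lists 20 had a median that turned sign in at least 1 of the fits leaving out 1 array, 15 of them without GFP replicate 1. The lists not described so far, whether or not their sign turned, had medians between -0.19 and 0.17. Endoplasmic reticulum stress genes had a median of 0.04 with 0 of 18 at an unadjusted p under 0.05, and ATF4 targets 0.17 with 0 of 27. The p53 targets had a median of 0.02, DNA replication genes 0.05, genes of mitosis -0.03, sterol and fatty acid synthesis genes 0.02 and NF-kB targets -0.05. Without GFP replicate 1 the medians were -0.08 for endoplasmic reticulum stress, 0.09 for ATF4 targets, -0.05 for DNA replication, -0.15 for mitosis, 0.01 for sterol and fatty acid synthesis and 0.04 for NF-kB targets. Glycolysis and hypoxia genes had a median of 0.13, and of 0.06 without GFP replicate 1. Of 27 measured, 2 had all construct arrays above all controls, beside 1% of 1-symbol rows: ENO1 (0.71 ± 0.27 SE) and ALDOA (0.33 ± 0.13 SE). In this list 2 genes were higher at an unadjusted p under 0.05, beside 1.37% of 1-symbol rows, and 0 without GFP replicate 1. Cytosolic ribosomal proteins had a median of 0.11, cytosolic chaperonin subunits 0.04, replication-dependent histones 0.03, keratin-associated proteins -0.19, small RNA processing genes 0.06, and corepressors of REST with G9a -0.01. Without GFP replicate 1 these were 0.0044, -0.03, -0.03, -0.08, -0.05 and -0.09. The markers of HEK293 cells, fibroblasts, leukocytes, endothelium and hepatocytes had medians of 0.00013, -0.08, -0.05, -0.08 and 0.01, and without that array of 0.00077, 0.07, 0.12, 0.07 and 0.07. In ENO1 as in RPL18, GFP replicate 1 was the low control, at 5.26 against 6.21 and 6.17.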

How the data were processed

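RNA of 12 samples was measured on 1-colour arrays with biotin label. The authors deposited 1 log2 value per row and array, used here unchanged. Partek, RMA and hg18 are listed in the submitters' processing notes; versions, probe level and filters were not known here. Symbols came from the platform annotation: 14432 rows had 1, 2408 several and 5171 none, and RefSeq held the Entrez identifiers of 14404 of the first. Where a gene had several rows, a list used 1 of them.

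A model with 4 group means was fitted to the 12 arrays in R 4.3.3 with limma 3.58.1 (lmFit, then eBayes without trend; 8 residual and 3.52 prior degrees of freedom). The mean of both constructs was compared with GFP, and full length with the deletion, in two-sided tests. P-values were adjusted by Benjamini-Hochberg over 22011 rows and called under 0.05. Every p of a row is limma's. The median SE of the pooled difference was 0.20, a precision limited by how few arrays there are. Alternatives were other scalings, arrays, filters, weights and adjustments, and leaving out each array. The script was tested on simulated data.

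MED12 and MED12L are named always. Otherwise the rule names rows past the threshold, the 10 smallest p-values per direction, the 5 largest per direction in both constructs, the 5 smallest p-values between constructs, and up to 4 genes per list. The members and the 36 lists were chosen with earlier results of these data known. The labels do not say what a replicate number marks. Deviations of same-numbered arrays from their group means correlated over 0.1 in every pair of GFP with full length (0.101 to 0.229) and of GFP with the deletion (0.149 to 0.472), and between the constructs at 0.0761 to 0.24, so the fit with that number as a block is given beside the pooled counts.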

Additional observations from a re-analysis of the deposited data

Results flagged for a closer look

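MED12 differed between the constructs, 1.76 higher on the log2 scale with full length than with the deletion, as tested directly with limma. Row 2363784, which carries 2 symbols and so lies outside the rows with 1 gene, was 1.70 higher with the constructs than with GFP.

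Of the 156 genes the naming rule takes, 7 had 1 construct array that stood apart from the other 5; chance gives this in about 1 of 20 groups. Full-length replicate 2 was high for MRPS14, at 4.39 against 3.71 to 3.91. PQL/Opa deletion replicate 1, the narrow array, stood apart in 5 of the 7. It was low for TOP2A (5.76 against 6.39 to 6.59) and DHCR7 (3.12 against 3.64 to 3.79). It was high for TP53I3 (3.89 against 3.46 to 3.61), RELB (4.28 against 3.35 to 3.66) and NKG7 (4.62 against 4.03 to 4.20). PQL/Opa deletion replicate 3 was low for CD14, at 3.16 against 3.35 to 3.45. None of these 7 genes passed the adjusted threshold in the pooled comparison.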

How the results depend on the processing

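MED12 passed against GFP in all 22 alternative fits, and so did row 2363784 except with the 6 construct arrays taken as 1 group and in the fit adjusted over 1-symbol rows, which leaves it out: 1 row passed in each, in place of 2. With array weights, which ranged from 0.287 for GFP replicate 1 to 8.77 for shRNA replicate 3, 24 rows passed, 8 of them with 1 symbol: DKK1, DNAJB1, IFI44, IFIT2, MED12, RSAD2, UBB and ZFAND2A. Leaving out 1 array gave 2 to 3 rows. With the replicate block 3 rows passed, and it changed no other call. Between the constructs the block left 1 row, the 9 arrays alone and eBayes with trend and robust each gave 0, quantile normalization 2, arrays scaled to the same median and SD 3, rows at or above the median level 2 and array weights 4, in place of 1; leaving out 1 array gave 0 to 3.

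Rows in which all construct arrays lay above all controls numbered 145; without the 2 narrow arrays 683 did, and 145 to 522 leaving out 1 array, where fewer arrays make separation easier. Below all controls lay 70, against 153 with quantile normalization, 133 with scaled arrays, 36 among rows at or above the median level, 560 without the narrow arrays and 70 to 414 leaving out 1.

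Of 156 named genes 138 kept 1 sign in all 22 settings, and the other 18 reversed in at least 1. None of those 18 had an unadjusted p under 0.05. The difference could not change with the replicate block, the row filter, another eBayes or another adjustment. Nor could it with the constructs as 1 group or without 1 or all shRNA arrays, so the sign was fixed there. With array weights SUFU was at 0.082, ESAM at 0.017 and TF at -0.0062. Without the narrow arrays POLR2G was at -0.025, SUFU at 0.0090, ESAM at 0.033, RCOR1 at -0.021 and KDM1A at -0.027. Leaving out 1 array gave these ranges: POLR2G -0.091 to 0.66, MED9 -0.077 to 0.47, MED21 -0.052 to 0.74, RELB -0.34 to 0.014, CCT5 -0.027 to 0.35, SUFU -0.23 to 0.0040, KDR -0.27 to 0.013, MED13L -0.082 to 0.39, ESAM -0.15 to 0.044, COL3A1 -0.27 to 0.013, TF -0.17 to 0.47, CD3E -0.54 to 0.052, RCOR1 -0.10 to 0.30, KDM1A -0.076 to 0.25, EHMT1 -0.097 to 0.0070, APOA1 -0.17 to 0.013, CCNC -0.21 to 0.053 and MED12L -0.043 to 0.11. The causes were not tested.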
